A study of Mus musculus with 35 samples.

Results

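Tumours labelled Myc/Bcl6 were set against sorted germinal centre (GC) B cells. The 3 tumour arrays and the 5 GC arrays, 8 of the 35 arrays of a mouse B-cell series, were taken by their titles. The tumours are given as lymphoid tumours of Bcl6/Myc dual-transgenic mice, and a sort, the site of the tumours and the age of the mice are not given in the sources used here. The GC cells are B220-positive, PNA-high cells sorted from the spleens of wild-type B6 mice. All RNA was amplified from total RNA and read on Affymetrix Mouse 430A2 arrays. As background, the cited mouse line joins λ-MYC, in which human MYC is driven by immunoglobulin light chain elements, to a Bcl6 allele driven by the immunoglobulin heavy chain locus. The background strain of the tumour mice is not stated, so that strain, sort and tumour cannot be told apart in this comparison. A second comparison below uses the 4 Bcl6 tumours, titled Bcl6 Trans, and correlations also use the 6 tumours titled Lig4/P53 KO.

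In a germinal centre, B cells divide, mutate their antibody genes and compete for help from T cells. Bcl6 is the transcriptional repressor that holds cells in this state, and Myc drives cell growth and is switched on in the small share of GC cells selected for further division. Lymphomas of GC origin often carry an activated BCL6 or MYC gene. Cd37, a tetraspanin of the B-cell surface, and Cd74, the invariant chain that guides class II molecules, are antigens of mature B cells.

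Values are log2 intensities from RMA, a method that corrects background, equalizes distributions and summarizes probes. The tumour arrays stood apart from the GC arrays in all 3 technical measures. The interquartile range of an array's values was 2.33 to 2.85 in tumours, against 3.95 to 4.14 in GC B cells. The 18S rRNA control signal lay between 4.24 and 4.62 in tumours, against 10.04 to 11.13 in GC B cells. For Actb and Gapdh, probes at the 3' end exceeded those at the 5' end by 3.23 to 4.69 in tumours, against 0.68 to 1.55 in GC B cells, a gap that widens with shorter RNA. Since no value overlapped, these measures and the group cannot be told apart.

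In a limma fit over all 35 arrays, with differences given on the log2 scale as tumours minus GC B cells ± standard error (n = 3 and 5), 5960 of 12393 genes (48.1%) passed an adjusted p under 0.05, of which 3365 (27.2%) were higher and 2595 (20.9%) lower in the tumours. The arrays of the groups did not overlap for 3795 genes (30.6%) that were higher and 2723 (22%) that were lower. With the 18S rRNA signal as a covariate, 86 genes were higher and 152 lower, and of the 29 gene lists described below class II presentation kept 4 called members and each of the others at most 1. Quantile normalization repeated on the deposited values gave 1970 genes higher (15.9%) and 1975 lower (15.9%), and 1618 (13.1%) and 1824 (14.7%) were called the same way on both scales, with 0 genes called in opposite directions. The median log2 difference over all genes was 0.31, and 0.10 after renewed normalization.

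The difference also went with the level of a gene. Genes with a mean of up to 3 in GC B cells had a median difference of 1.01 (n = 2131), those between 9 and 10 of -1.50 (n = 725), and those above 11 of -1.70 (n = 206). After renewed normalization the corresponding medians were 0.37, -0.80 and -1.33. The share of genes called higher was 59.7% up to 3 and 7.59% between 9 and 10. The share called lower was 0% and 55.3%. Of 1716 genes with at least 2 called probe sets, 697 had all of them higher, 668 all lower and 351 some in each direction. A gene's value below is that of its brightest probe set. Of 108 called list members with further probe sets, 8 had another called in the opposite direction and 50 more had another that did not pass. A further probe set did not pass for these genes named below: Mlx, Mycn, Myb, Tcf4, Bcl10, Nfatc1, Inpp5d, Tapbp, Ddx21, Npm1, Polr1a, Irf4, Cd44, Cdkn1a, Kif11, Cdc20, Mcm3, Tyms, Bak1, Suz12, Nfkb2, Igfbp7, Cp, Msr1, Stat2, Igll1, Uqcrc2, Stx1a and B3gnt5.

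**Figure D1:**
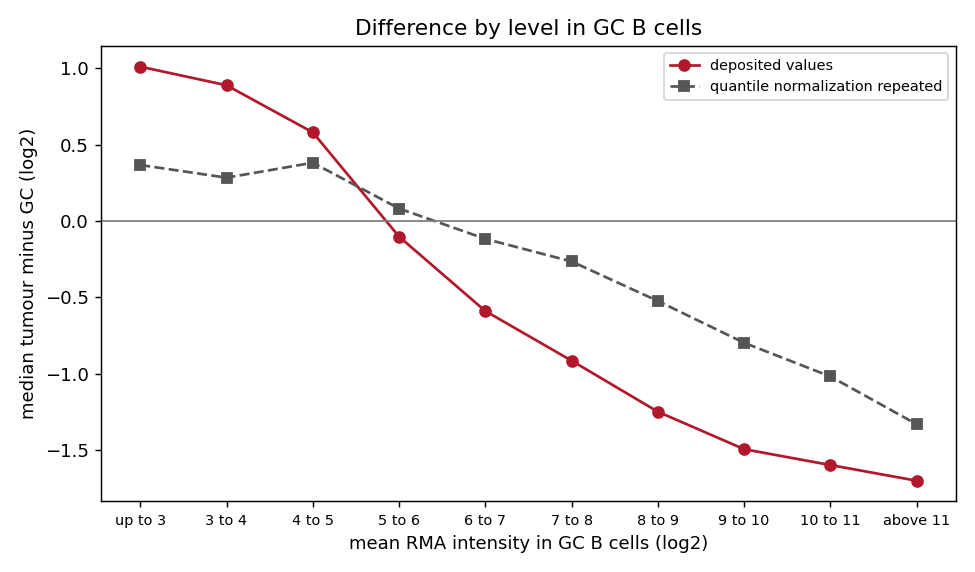
Median log2 difference of Myc/Bcl6 tumours minus GC B cells (y axis) for genes grouped by their mean RMA intensity in GC B cells (x axis), from the deposited values (red) and after repeated quantile normalization (grey, dashed). The median fell from bin to bin on the deposited values, 1.01 for the dimmest and -1.70 for the brightest genes.

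The 3 tumours were not alike in the genes that mark B cells. Ptprc, the leukocyte surface phosphatase that carries the B220 epitope, had 7.12, 10.47 and 11.38 in the tumours, against 11.29, 11.44, 11.48, 11.61 and 11.28 in GC B cells. Ighm, the IgM heavy chain, had 5.61, 11.74 and 13.03 in the tumours, against 11.05, 11.13, 11.62, 11.83 and 11.72 in GC B cells. Ms4a1, which encodes CD20, had 4.39, 11.56 and 11.37 in the tumours, against 11.83, 11.77, 11.70, 11.80 and 11.44 in GC B cells. By these, the brightest probe sets, replicate 1 lay far below every other array in all 3 genes. Other probe sets also put replicate 2 low for Ighm: in 5 of the 7 called lower it had 3.18 to 5.44, beside 10.61 to 11.75 in replicate 3. The other Ms4a1 probe set had 4.12, 10.03 and 7.99 in the tumours, against 11.37 to 11.92 in GC B cells (-4.29 ± 0.79). Alb, the serum albumin made by liver, had 4.28, 13.99 and 4.48 in the tumours, against 3.58, 3.46, 3.24, 3.33 and 3.40 in GC B cells, so that replicate 2 alone was at the level of an abundant transcript.

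Between the groups, Ptprc fell (log2 difference -1.77 ± 0.54, limma adjusted p = 0.00886, and -0.50 without replicate 1, limma adjusted p = 0.344). Ms4a1 fell likewise (-2.60 ± 0.99, limma adjusted p = 0.0308, and -0.24 without replicate 1, limma adjusted p = 0.81). Ighm did not pass (-1.34 ± 1.02, limma adjusted p = 0.271), and its sign turned without replicate 1 (0.92). Of the 11 probe sets given to Ighm, 7 fell and 1 rose. Alb passed with all arrays (4.18 ± 1.07, limma adjusted p = 0.00229) and not without replicate 2 (0.98, limma adjusted p = 0.0565). Fitted on the compared arrays alone, neither Ptprc (limma adjusted p = 0.0823) nor Alb (limma adjusted p = 0.0862) passed. Fewer B cells and less RNA per cell cannot be told apart in bulk tumours.

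**Figure D2:**
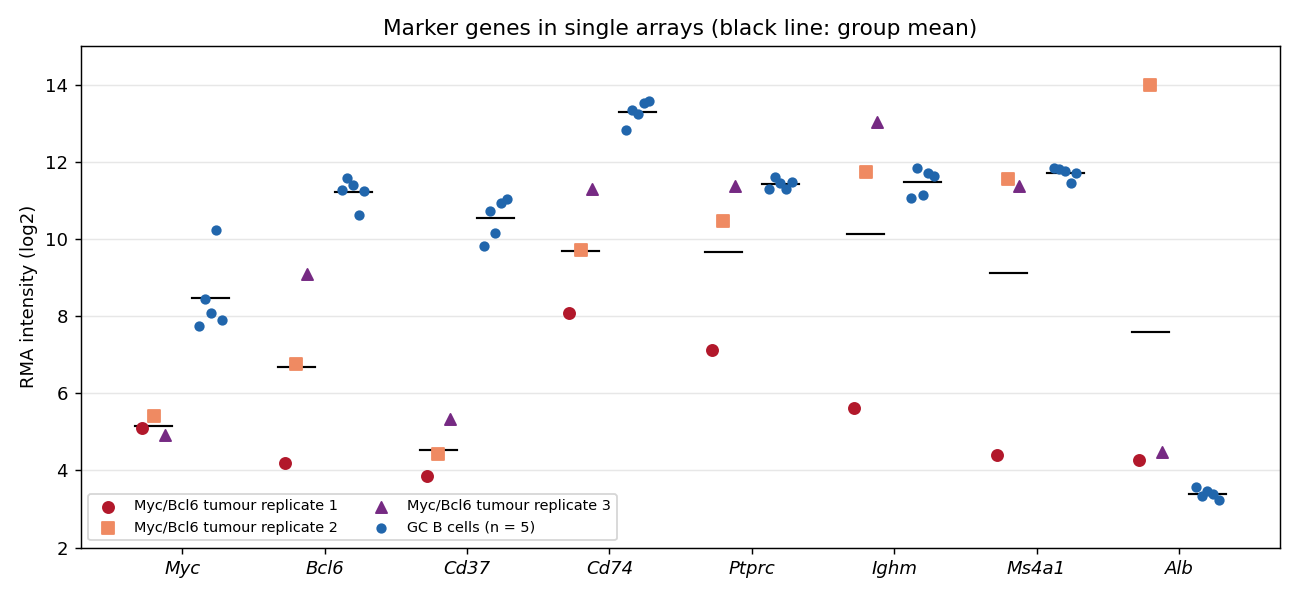
RMA intensity (log2, y axis) of 8 genes in each Myc/Bcl6 tumour (left, one symbol per replicate) and each GC array (right, blue), with black lines for group means. In these brightest probe sets replicate 1 is lowest for Ptprc, Ighm and Ms4a1, replicate 2 stands apart for Alb, and all 3 tumours lie below all GC arrays for Myc, Bcl6, Cd37 and Cd74.

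Both genes in the tumours' name were lower, not higher, than in GC B cells. Myc had 5.11, 5.41 and 4.93 in the tumours, against 7.75, 8.08, 7.90, 8.44 and 10.23 in GC B cells. The tumours sat within 1 narrow band below every GC array, and the GC arrays themselves spread widely, with the fifth on top. The log2 difference was -3.33 ± 0.69, limma adjusted p = 0.000327. Bcl6 had 4.18, 6.77 and 9.10 in the tumours, against 11.28, 11.40, 11.24, 11.57 and 10.63 in GC B cells. The groups did not overlap, yet replicate 3 was much closer to the GC arrays than replicate 1 was, and the difference was -4.54 ± 0.76, limma adjusted p = 2.74e-05. The other Bcl6 probe set was also lower (-1.42 ± 0.44, limma adjusted p = 0.00963), with 4.33 to 5.12 in tumours and 4.98 to 6.69 in GC B cells. Whether these mouse probe sets read the transgene transcripts is not given in the sources used here, so they do not check the labels. The Bcl6 difference was -2.12 (limma adjusted p = 0.0894) with replicate 3 as the only tumour, and that of Myc missed the threshold with each of the 3 technical measures as a covariate (-0.90 to -1.76, limma adjusted p = 0.0836 to 0.82).

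Myc acts as a pair with Max, which also pairs with the Mxd and Mnt repressors. Of 12 genes of this network, 3 rose and 4 fell (median 0.06), beside 27.2% higher and 20.9% lower over all genes. Max fell the most: it had 5.47, 4.76 and 4.87 in the tumours, against 9.08, 9.42, 9.42, 9.16 and 9.72 in GC B cells (log2 difference -4.33 ± 0.72, limma adjusted p = 2.33e-05). Max was low in all 3 tumours, with no overlap. Mlx, which pairs with a related set of factors, fell by 2.10, and Mxi1, a repressor, had probe sets called both ways (-1.29 ± 0.47 and 0.94). Mycn, the neuronal relative of Myc, had 7.02, 6.77 and 7.0 in the tumours, against 5.05, 5.18, 5.35, 5.02 and 5.29 in GC B cells (log2 difference 1.75 ± 0.34, limma adjusted p = 0.000168), higher in every tumour. Zbtb17, which encodes the Myc partner Miz-1, rose with all arrays (1.24 ± 0.41) and missed the threshold without replicate 1 or 2 (0.99 without replicate 1, limma adjusted p = 0.0869; 1.09 without replicate 2, limma adjusted p = 0.0629), as did Mxi1 without replicate 2 or 3 (-1.25 without replicate 2, limma adjusted p = 0.0621; -1.27 without replicate 3, limma adjusted p = 0.064).

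Of 15 measured germinal centre genes, 1 was higher and 13 lower (8 lower with replicate 3 as the only tumour), with a median of -2.78 beside 0.31 for all genes, and -2.23 after renewed normalization. This list's mean level was 8.75 to 9.41 in GC arrays. Of all genes between 8 and 9 in GC B cells 49.0% were lower (median -1.25), and of those between 9 and 10 55.3% (median -1.50). Gcsam, a GC adaptor of cell movement, had 3.40, 3.13 and 4.0 in the tumours, against 9.05, 8.41, 7.82, 8.0 and 6.17 in GC B cells. It was near the bottom of the scale in all 3 tumours, and the difference was -4.38 ± 0.49, limma adjusted p = 5.13e-08. Lmo2, a transcriptional bridging protein used to recognise GC lymphomas, had 5.68, 6.16 and 5.77 in the tumours, against 10.01, 10.01, 10.52, 10.19 and 10.66 in GC B cells (-4.41 ± 0.52). Cd83, a marker of light zone cells, had 5.01, 8.10 and 7.26 in the tumours, against 11.89, 11.80, 11.63, 11.62 and 11.23 in GC B cells (-4.84 ± 0.64). Replicate 1 was lowest for Cd83, and no tumour reached the GC arrays for either gene. Myb, a factor of dividing blood cells, fell by 3.27, and Gna13, a signal protein that confines GC B cells, by 4.02. The member that rose was Gcnt3, a glycosyltransferase, from a dim probe set (1.32 ± 0.47, not called after renewed normalization, nor without replicate 1 or 2). Mybl1, a factor of dividing GC cells, did not pass (-1.15 ± 0.52).

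Transcription factors of the B lineage followed, with 12 of 17 lower and 2 higher (median -2.69, -2.55 after renewed normalization, and 10 lower with replicate 3 alone). Their mean level was 8.41 to 8.77 in GC arrays, and 49.0% of all genes between 8 and 9 were lower (median -1.25). Tcf4, an E protein, had 5.81, 7.08 and 5.40 in the tumours, against 11.09, 10.97, 11.28, 11.40 and 11.49 in GC B cells (-5.15 ± 0.70, limma adjusted p = 1.18e-06). Ebf1, which specifies the lineage, had 5.40, 6.74 and 6.92 in the tumours, against 9.39, 9.35, 10.14, 9.95 and 10.09 in GC B cells (-3.43 ± 0.49), and all 3 of its probe sets fell. Both genes were below every GC array in each tumour. Ets1, a factor of resting lymphocytes, fell by 3.47, Mef2c, which acts below the antigen receptor, by 3.92, Spib by 4.43 and Bach2, a repressor of plasma cell fate, by 3.45. The members that rose, Ikzf1 (3.25 ± 0.40) and Pax5 (1.31 ± 0.38), were each read by 1 probe set that was dim in GC B cells (3.55 and 3.64 on average), although both factors are active in normal B cells. Spi1 did not pass (-0.36 ± 0.40), nor did Foxo1 (-0.64 ± 0.48) and Id2 (-0.80 ± 0.58), whose other probe sets include called decreases (-2.34 and -1.88 for Foxo1, -2.58 for Id2).

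Among the antigen receptor and its partners on the surface, 14 of 16 genes fell and 0 rose (median -2.48, -2.18 after renewed normalization). The count was 10 without replicate 1 and 7 with replicate 3 alone. In GC arrays the list's mean level was 10.10 to 10.74, and 56.0% of all genes between 10 and 11 were lower (median -1.60). Cd37 had 3.85, 4.43 and 5.33 in the tumours, against 9.82, 10.16, 11.04, 10.72 and 10.94 in GC B cells (-6.0 ± 0.38, limma adjusted p = 8.11e-13). It was at a low level in all 3 tumours, those with high Ptprc included. This call held under all 21 alternatives of the main comparison (largest adjusted p = 0.00269). Its other probe set fell less (-1.90 ± 0.58).

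Cr2, the complement receptor of the B-cell co-receptor, had 4.53, 2.52 and 5.24 in the tumours, against 9.06, 9.28, 10.39, 10.36 and 10.65 in GC B cells (-5.86 ± 0.56). Ly6d, a surface protein of early lymphoid and B cells, had 5.42, 4.85 and 4.72 in the tumours, against 11.35, 11.10, 10.71, 10.18 and 11.47 in GC B cells (-5.97 ± 0.53). Neither gene overlapped between the groups. The signalling chains of the receptor itself fell by less: Cd79a had 5.51, 6.66 and 7.54 in the tumours, against 10.31, 10.68, 11.21, 11.07 and 11.34 in GC B cells (-4.35 ± 0.41). Cd79b, its partner, had 7.91, 7.61 and 7.89 in the tumours, against 11.49, 11.49, 11.81, 11.52 and 11.58 in GC B cells (-3.77 ± 0.38). The 3 tumours were within a narrow range of each other for Cd79b, while Cd79a was highest in replicate 3. Cd53, another tetraspanin, fell by 4.52. Cd72 (-1.69 ± 0.75) and Ighm did not pass.

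Inside the cell, 10 of 14 genes of receptor signalling fell and 0 rose (median -1.85, -1.09 after renewed normalization). Their mean level was 8.48 to 9.14 in GC arrays. Of all genes between 8 and 9 in GC B cells 49.0% were lower (median -1.25), and of those between 9 and 10 55.3% (median -1.50). Bcl10, the adaptor that links the receptor to NF-kB, had 4.38, 5.08 and 4.64 in the tumours, against 10.09, 10.19, 10.44, 10.32 and 10.62 in GC B cells (-5.63 ± 0.86, limma adjusted p = 7.3e-06). Nfatc1, a calcium-driven factor, had 3.98, 5.44 and 4.06 in the tumours, against 7.99, 8.37, 9.52, 9.63 and 10.11 in GC B cells (-4.63 ± 0.54). Prkcb, the kinase that acts upstream of Bcl10, had 4.20, 7.08 and 7.87 in the tumours, against 10.02, 10.07, 10.59, 10.47 and 10.41 in GC B cells (-3.93 ± 0.60). Bcl10 was uniformly low, whereas Prkcb was higher in replicates 2 and 3 than in replicate 1. The phosphatases Ptpn6 and Inpp5d, which restrain signalling, fell by 2.99 and 2.29. Plcg2, the phospholipase of the pathway (-0.27 ± 0.59), Syk (-1.63 ± 0.70), Blnk (-1.21 ± 0.67) and Pik3ap1 (-0.45 ± 0.43) did not pass.

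Class II genes had the lowest median difference of all 29 lists over the 3 tumours (-3.41, -2.92 after renewed normalization). B cells use class II molecules to show antigen to T cells, and Ciita and the Rfx factors turn these genes on through a shared promoter module that ends in a CCAAT motif. Of 13 measured genes 11 fell and 0 rose, and 9 fell with replicate 3 alone. Windows from RefSeq (GRCm38.p6), 250 bases before to 50 after the start, held CCAAT on either strand in 7 of the 9 matched members (7 of 10 windows, 70.0%), and in 37.4% of all 32851 windows; this motif was chosen after the data were seen. The promoters of a class II β chain, a class II α chain and a chain of the peptide-loading regulator are shown to place the motif, 5′ to 3′, with CCAAT or its reverse complement in capitals (in the order H2-Eb1, H2-Aa, H2-Oa: chr17:34305617-34305916, plus strand; chr17:34287774-34288073, minus strand; chr17:34092129-34092428, plus strand).
H2-Eb1: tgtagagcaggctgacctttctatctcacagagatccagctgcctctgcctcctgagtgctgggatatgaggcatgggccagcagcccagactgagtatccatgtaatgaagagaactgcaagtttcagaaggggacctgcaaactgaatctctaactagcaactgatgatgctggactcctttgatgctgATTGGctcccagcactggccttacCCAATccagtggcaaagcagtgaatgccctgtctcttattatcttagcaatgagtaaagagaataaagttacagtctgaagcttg
H2-Aa: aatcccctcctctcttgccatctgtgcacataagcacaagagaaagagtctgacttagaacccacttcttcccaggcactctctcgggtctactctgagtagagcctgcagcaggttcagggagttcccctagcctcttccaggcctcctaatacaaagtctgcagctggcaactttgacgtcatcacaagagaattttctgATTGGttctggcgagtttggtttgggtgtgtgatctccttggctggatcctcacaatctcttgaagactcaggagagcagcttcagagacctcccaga
H2-Oa: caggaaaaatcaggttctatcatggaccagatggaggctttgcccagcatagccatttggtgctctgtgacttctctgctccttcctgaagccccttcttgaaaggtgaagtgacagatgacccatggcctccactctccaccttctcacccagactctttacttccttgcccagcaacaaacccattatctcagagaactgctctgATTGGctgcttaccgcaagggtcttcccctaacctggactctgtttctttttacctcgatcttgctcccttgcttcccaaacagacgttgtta

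The first base of the motif lay 59 and 35 bases before the start in H2-Eb1, 48 bases before it in H2-Aa and 43 bases before it in H2-Oa. H2-Oa had 3.20, 5.04 and 5.75 in the tumours, against 9.74, 9.46, 9.86, 9.96 and 10.11 in GC B cells (-5.16 ± 0.54, limma adjusted p = 1.44e-08). H2-Eb1 had 6.83, 8.34 and 9.73 in the tumours, against 11.28, 11.47, 12.03, 11.92 and 12.10 in GC B cells (-3.46 ± 0.43, limma adjusted p = 2.71e-07). Each gene was lowest in replicate 1 and highest in replicate 3, with no tumour in the GC range. H2-Aa fell by less (-1.45 ± 0.47, with 7.96, 10.01 and 12.25 in the tumours, against 11.33, 11.42, 11.61, 11.67 and 11.58 in GC B cells), and replicate 3 was above every GC array. Without replicate 1 the H2-Aa call was lost (-0.39 without replicate 1, limma adjusted p = 0.425), while its other probe set fell further (-6.12).

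Cd74 had 8.08, 9.71 and 11.29 in the tumours, against 12.82, 13.23, 13.57, 13.34 and 13.51 in GC B cells (-3.60 ± 0.44, limma adjusted p = 2.56e-07). The tumours spread over more than the GC arrays did, again with replicate 1 lowest, and did not overlap with them. Ciita, the master regulator, fell by 3.53 and Rfx5, a subunit of the promoter-binding complex, by 3.18. H2-DMb2, of the peptide exchange factor, had 5.47, 5.74 and 6.57 in the tumours, against 9.23, 9.60, 10.67, 9.11 and 10.16 in GC B cells (-3.82 ± 0.47), low in each tumour. Ctss, the protease that trims the invariant chain (0.00 ± 0.43), and Rfxap (0.27 ± 0.44) did not pass. The list's mean level was 6.63, 7.41 and 8.33 in the tumours and 9.77 to 10.39 in GC arrays. Of all genes between 9 and 10 in GC B cells 55.3% were lower (median -1.50), and of those between 10 and 11 56.0% (median -1.60).

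Class I presentation, which nearly all cells carry out, had 9 of 12 genes lower and 0 higher (median -1.64, -1.18 after renewed normalization). The list's mean level was 9.55 to 9.82 in GC arrays. Of all genes between 9 and 10 in GC B cells 55.3% were lower, with a median of -1.50 (-0.80 after renewed normalization). Tapbp, the chaperone tapasin, had 6.49, 8.74 and 8.14 in the tumours, against 10.38, 10.62, 11.23, 10.81 and 11.51 in GC B cells (-3.12 ± 0.49, limma adjusted p = 9.61e-06). The immunoproteasome subunits Psmb8 and Psmb9 fell by 2.64 and 2.42, and the chaperones Calr and Pdia3 by 2.59 and 2.22. None of these 5 genes overlapped between the groups. Pdia3 missed the threshold without replicate 3 (-1.44 without replicate 3, limma adjusted p = 0.0537). B2m, the class I light chain, did not pass (-0.56 ± 0.30), although its other probe set fell (-2.52).

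Genes of growth and ribosome assembly that Myc is known to activate moved in both directions. Of 27, 3 rose and 4 fell (median 0.13, 0.54 after renewed normalization), beside 27.2% higher and 20.9% lower over all genes. The single tumours differed: the median against the GC mean was 1.09, 0.19 and -0.99 in replicates 1, 2 and 3. Without replicate 1, 1 rose and 6 fell, without replicate 2, 1 rose and 4 fell, without replicate 3, 8 rose and 2 fell, and with replicate 3 alone 0 rose and 8 fell. Ddx21, a nucleolar helicase, had 7.69, 8.30 and 6.38 in the tumours, against 10.55, 10.60, 10.90, 10.65 and 10.88 in GC B cells (-3.26 ± 0.64, limma adjusted p = 0.000188). Cdk4, a kinase of cell cycle entry, had 8.12, 7.17 and 5.84 in the tumours, against 9.0, 9.02, 8.96, 9.04 and 9.04 in GC B cells (-1.97 ± 0.42), and Polr1a, the largest subunit of RNA polymerase I, had 8.49, 6.95 and 6.09 in the tumours, against 5.40, 5.81, 5.65, 5.88 and 5.62 in GC B cells (1.50 ± 0.36). Ddx21 and Cdk4 were lowest in replicate 3 and Polr1a highest in replicate 1, all without overlap. Npm1, a nucleolar chaperone, fell by 1.52, and Srm, of polyamine synthesis, rose by 1.42. Single tumours decided both calls: Npm1 had -0.42 without replicate 3, limma adjusted p = 0.56, and Srm had 0.48 without replicate 1, limma adjusted p = 0.504. Ncl (-0.73 ± 0.33), Odc1 (0.47 ± 0.45) and Cad (0.93 ± 0.68) did not pass.

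Ldha, lactate dehydrogenase, a textbook Myc target, had 11.41, 11.60 and 9.32 in the tumours, against 10.20, 10.02, 9.39, 9.75 and 9.04 in GC B cells (1.10 ± 0.39, limma adjusted p = 0.0209). Replicates 1 and 2 were above all GC arrays and replicate 3 within their range, and the call was lost without either of them (0.78 without replicate 1, limma adjusted p = 0.143; 0.69 without replicate 2, limma adjusted p = 0.185). Myc and Max bind the E-box CACGTG, which was found in 6 of 28 promoter windows (21.4%) of 22 matched members and in 7.15% of all windows. The window of Ldha held it at 145 and 48 bases before the start (chr7:46845554-46845853, plus strand), and is shown because Ldha is a member with a match whose difference passed over all arrays, with CACGTG in capitals.
Ldha: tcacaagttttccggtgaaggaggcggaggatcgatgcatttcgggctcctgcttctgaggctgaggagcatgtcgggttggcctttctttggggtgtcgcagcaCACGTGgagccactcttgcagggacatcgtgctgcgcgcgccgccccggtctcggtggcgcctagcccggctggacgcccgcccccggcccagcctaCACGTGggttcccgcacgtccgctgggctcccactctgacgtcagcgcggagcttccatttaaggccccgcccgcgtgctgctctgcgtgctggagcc

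Genes known to be repressed by Bcl6 moved in both directions, 4 of 16 higher and 4 lower (median 0.50, 0.62 after renewed normalization). These shares were near the 27.2% higher and 20.9% lower of all genes. Without replicate 1 the counts were 2 and 4, without replicate 3 they were 2 and 6, and with replicate 3 alone 2 and 3. Socs2, an inhibitor of cytokine signals, had 9.52, 7.59 and 5.80 in the tumours, against 5.17, 5.87, 4.61, 4.92 and 4.65 in GC B cells (2.60 ± 0.76, limma adjusted p = 0.00629), and Cdkn1a, the cell cycle inhibitor p21, had 6.24, 6.66 and 6.67 in the tumours, against 5.01, 4.26, 4.26, 4.10 and 4.42 in GC B cells (2.11 ± 0.68). Socs2 ranged widely among the tumours, overlapped in replicate 3 and was not called without replicate 1 (1.65 without replicate 1, limma adjusted p = 0.0971), while Cdkn1a was uniform. On the other side, Irf4, a factor of plasma cells and of GC exit, had 7.10, 3.72 and 4.90 in the tumours, against 9.38, 9.59, 10.43, 10.89 and 11.39 in GC B cells (-5.10 ± 1.06, limma adjusted p = 0.000336). Cd44, a homing receptor, fell by 4.12, Ccl3, a chemokine, by 3.43 and Cdkn1b, the inhibitor p27, by 2.59. Prdm1, the driver of plasma cell fate, had 7.53, 4.82 and 7.20 in the tumours, against 5.58, 5.68, 6.14, 6.25 and 5.45 in GC B cells and did not pass (0.69 ± 0.53). Replicate 2 was below and replicates 1 and 3 above the GC arrays. The palindrome TTCNNNGAA, which stands for the core Bcl6 site, was found in 2 of 20 windows of these genes (10%), both of 1 gene, and in 8.30% of all windows.

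Germinal centre B cells divide fast, and more cell division genes were lower than higher in the tumours, as among all genes of a like level. Of 19 mitosis genes 9 fell and 1 rose (median -1.48, -0.97 after renewed normalization, with 5 lower after renewed normalization and also 5 without replicate 3). The mitosis list's mean level was 6.71 to 8.39 in GC arrays. Of all genes between 7 and 8 in GC B cells 40.7% were lower (median -0.92), and of those between 8 and 9 49.0% (median -1.25). Kif11, a spindle motor, had 5.07, 3.89 and 4.56 in the tumours, against 7.68, 7.70, 7.43, 7.36 and 5.76 in GC B cells (-2.68 ± 0.49, limma adjusted p = 8.97e-05), and Cenpe, a kinetochore motor, had 3.21, 2.88 and 3.50 in the tumours, against 7.98, 7.61, 6.56, 6.82 and 4.37 in GC B cells (-3.47 ± 0.68). Both were low in each tumour, and the fifth GC array was the lowest of its group. Birc5, the passenger protein survivin, fell by 3.26. The member that rose was Cdc20, an activator of mitotic exit, with 11.57, 8.77 and 8.70 in the tumours, against 7.98, 8.10, 7.81, 7.71 and 6.50 in GC B cells (2.06 ± 0.68), highest in replicate 1 and not called without it (1.12 without replicate 1, limma adjusted p = 0.204).

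For DNA replication, 7 of 19 genes fell and 1 rose (median -0.66), and after renewed normalization 3 fell and 2 rose. This list's mean level was 7.90 to 8.98 in GC arrays, and 49.0% of all genes between 8 and 9 were lower (median -1.25). Mcm3, of the replicative helicase, had 8.15, 6.15 and 6.86 in the tumours, against 9.73, 9.78, 9.69, 9.58 and 9.13 in GC B cells (-2.53 ± 0.38, limma adjusted p = 6.62e-06), and Pcna, the sliding clamp, fell by 2.25. Mcm4, Mcm6 and Mcm7, of the same helicase, did not pass (-0.34 ± 0.42, -0.48 ± 0.50 and -0.85 ± 0.46), and their other called probe sets went both ways (-3.16 for Mcm4, 1.01 for Mcm6, -1.97 and -2.84 for Mcm7). Tyms, of thymidylate synthesis, rose (1.07 ± 0.35) but not without replicate 1 (0.68 without replicate 1, limma adjusted p = 0.139) or 3 (0.91 without replicate 3, limma adjusted p = 0.0679).

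Of 17 regulators of the G1 phase, 8 fell and 3 rose (median -0.81). Their mean level was 6.19 to 6.74 in GC arrays. Between 6 and 7 in GC B cells, 31.2% of all genes were lower and 7.78% higher (median -0.59). Ccnd3, the cyclin D that GC B cells depend on, had 4.74, 3.85 and 4.36 in the tumours, against 8.34, 8.44, 8.20, 7.89 and 7.14 in GC B cells (-3.69 ± 0.55, limma adjusted p = 5.09e-06). Cdkn2d, an inhibitor of Cdk4, had 3.87, 3.88 and 4.50 in the tumours, against 7.94, 7.66, 7.61, 6.75 and 7.02 in GC B cells (-3.31 ± 0.43). The 3 tumours were alike and below every GC array for both. Cdk2 fell by 2.98, and the inhibitors Cdkn2b (1.61 ± 0.59) and Cdkn1c (1.11 ± 0.37) rose. Neither call held without 1 tumour (Cdkn2b 0.66 without replicate 3, limma adjusted p = 0.386; Cdkn1c 0.51 without replicate 2, limma adjusted p = 0.261). Cdkn2a, which encodes the tumour suppressor p19Arf, did not pass (0.74 ± 0.37).

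In the Bcl2 family of survival proteins, 4 of 14 genes fell and 2 rose (median -0.71). Their mean level was 6.06 to 6.38 in GC arrays. Between 6 and 7 in GC B cells, 31.2% of all genes were lower and 7.78% higher (median -0.59). Pmaip1, the death activator Noxa, had 4.25, 4.92 and 4.14 in the tumours, against 7.98, 8.06, 5.95, 7.62 and 7.81 in GC B cells (-3.05 ± 0.53, limma adjusted p = 4.11e-05). Bbc3, the activator Puma, had 6.95, 5.62 and 7.12 in the tumours, against 4.35, 4.65, 4.91, 4.93 and 4.49 in GC B cells (1.90 ± 0.35, limma adjusted p = 9.35e-05). They moved in opposite directions, each without overlap. Bid (-2.04 ± 0.56) and Bak1 (-1.92 ± 0.56) fell, Bid not without replicate 3 (-1.47 without replicate 3, limma adjusted p = 0.0583). The protective members Bcl2 (-1.42 ± 0.67), Bcl2l1 (0.34 ± 0.48) and Mcl1 (-0.58 ± 0.41) did not pass, although 3 other probe sets of Mcl1 fell (-1.47 to -2.97). Polycomb repressive complex 2, which silences genes with Bcl6 in GC cells, had 6 of 10 genes lower and 1 higher (median -1.35), or 3 lower with replicate 3 alone. Mtf2 and Jarid2, accessory subunits, fell by 3.43 and 2.61, and the core subunit Suz12 by 1.54. Its catalytic subunit Ezh2 did not pass (-0.51 ± 0.51). The Polycomb list's mean level was 8.90 to 9.29 in GC arrays. Of all genes between 8 and 9 in GC B cells 49.0% were lower (median -1.25), and of those between 9 and 10 55.3% (median -1.50).

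Immediate early genes, which respond to stimulation and to tissue handling within minutes, had 12 of 16 members lower and 0 higher (median -2.43, -2.28 after renewed normalization). Their mean level was 7.52 to 9.19 in GC arrays, and 49.0% of all genes between 8 and 9 were lower (median -1.25). Zfp36, which destabilises messenger RNA, had 4.30, 4.14 and 3.78 in the tumours, against 9.14, 9.67, 9.28, 9.95 and 10.14 in GC B cells (-5.56 ± 0.46, limma adjusted p = 2.31e-10). Klf6, a zinc finger factor, had 4.55, 4.28 and 6.0 in the tumours, against 10.98, 11.36, 10.62, 11.29 and 11.88 in GC B cells (-6.28 ± 0.86). Egr1 had 5.34, 8.66 and 5.18 in the tumours, against 10.48, 11.34, 11.25, 12.27 and 11.86 in GC B cells (-5.04 ± 0.95). Apart from Egr1 in replicate 2, the tumours were near each other, and no gene of these overlapped. Fos fell by 4.92 and Fosb by 4.43. A sort is given for the GC cells alone, and the part of handling in this difference was not tested.

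Of 15 NF-kB subunits and targets 9 fell and 0 rose (median -1.78), or 6 after renewed normalization and 4 with replicate 3 alone. In GC arrays the list's mean level was 7.40 to 7.98, and 40.7% of all genes between 7 and 8 were lower (median -0.92). Nfkbie, an inhibitor that NF-kB itself induces, had 4.34, 6.01 and 6.18 in the tumours, against 8.27, 8.61, 9.14, 9.18 and 9.02 in GC B cells (-3.33 ± 0.61, limma adjusted p = 8.64e-05), below the GC arrays in each tumour. The subunits Relb (-2.33 ± 0.52), Rela (-2.20 ± 0.52) and Nfkb2 (-1.78 ± 0.36) fell. Tnfaip3, the feedback inhibitor A20 (0.38 ± 0.29), and Nfkbia (-0.71 ± 0.41) did not pass, although 2 other Nfkbia probe sets fell (-2.05 and -2.19).

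Adhesion and homing genes fell in 12 of 14 cases and rose in 0 (median -2.17, -1.88 after renewed normalization, with 6 lower with replicate 3 alone). Their mean level was 7.59 to 8.46 in GC arrays. Of all genes between 7 and 8 in GC B cells 40.7% were lower (median -0.92), and of those between 8 and 9 49.0% (median -1.25). Ccr6, a chemokine receptor, had 3.51, 3.50 and 4.52 in the tumours, against 7.23, 6.69, 9.01, 8.24 and 9.47 in GC B cells (-4.29 ± 0.55, limma adjusted p = 5.23e-07). S1pr1, which guides lymphocytes out of tissue, had 5.36, 3.46 and 4.20 in the tumours, against 6.45, 6.44, 7.46, 7.33 and 8.19 in GC B cells (-2.83 ± 0.48). Cxcr4, the receptor of the GC dark zone, had 9.35, 8.48 and 10.17 in the tumours, against 11.07, 11.33, 11.42, 11.62 and 11.91 in GC B cells (-2.14 ± 0.39). All 3 genes were lower in each tumour, and Cxcr4 stayed an abundant transcript. The integrin chains Itgal (-0.14 ± 0.46) and Itgb2 (-0.43 ± 0.54) did not pass.

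**Figure D3:**
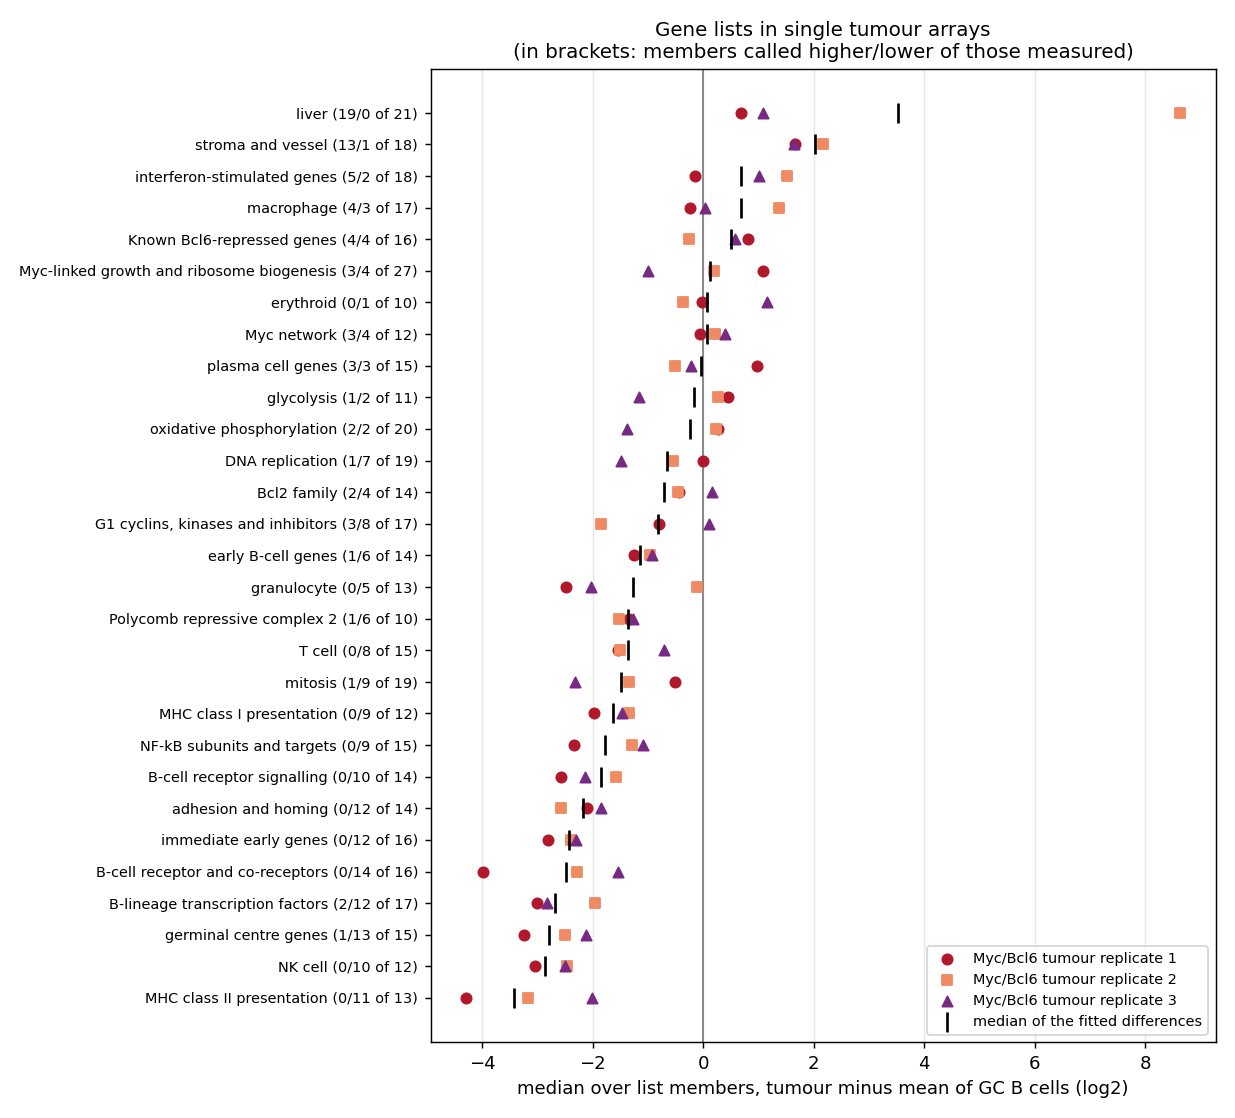
Median over the members of each of 29 gene lists of the tumour value minus the GC mean (x axis, log2), for each Myc/Bcl6 tumour (symbols) and for the fitted difference (black bar), with called members in brackets. The class II list has the lowest fitted median, with -4.28 in replicate 1, -3.16 in replicate 2 and -2.01 in replicate 3, and in the liver list replicate 2 lies far above the others.

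The largest single decreases among called genes without overlap included genes of the actin skeleton. Vasp, which extends actin filaments, had 3.98, 4.64 and 4.41 in the tumours, against 10.63, 10.95, 11.24, 10.44 and 11.38 in GC B cells (-6.58 ± 0.55, limma adjusted p = 2.17e-10). Pfn1, which supplies actin monomers, had 5.37, 4.72 and 4.86 in the tumours, against 10.30, 10.74, 11.61, 10.58 and 11.63 in GC B cells (-5.99 ± 0.62). Both were low in all 3 tumours, and each has 1 probe set on this array. Also among the 12 were Ranbp9, a scaffold protein (-6.16 ± 0.62), Rras2, a Ras-like GTPase (-5.81 ± 0.78), Pold4, a subunit of DNA polymerase delta (-5.76 ± 0.70), Acss1, which makes acetyl-CoA in mitochondria (-5.73 ± 0.70), Gatad2a, of the NuRD repressor complex (-5.65 ± 1.06), and the α-globin gene Hba-a2 (-5.72 ± 0.66), beside Klf6, Cd37, Ly6d and Cr2 above. Ranbp9 and Gatad2a have further probe sets with smaller differences (-2.49 for the other of Ranbp9, -4.98, -1.12 and -0.42 for those of Gatad2a), the 2 others of Acss1 rose (1.90 and 1.2), and the probe set of Hba-a2 may also read its near-identical copy.

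Among the 12 largest increases, Fkbp9, a proline isomerase of the secretory pathway, had 8.44, 8.57 and 8.49 in the tumours, against 2.13, 2.25, 2.17, 2.20 and 2.06 in GC B cells (6.34 ± 0.37, limma adjusted p = 7.71e-14). Gsto1, a glutathione transferase, had 11.57, 10.84 and 11.06 in the tumours, against 5.56, 5.41, 4.96, 5.12 and 5.08 in GC B cells (5.93 ± 0.44). Igfbp7, secreted by vessel and stroma cells, had 9.43, 9.10 and 9.87 in the tumours, against 3.77, 3.62, 3.96, 4.23 and 3.91 in GC B cells (5.57 ± 0.38). These genes were alike in the 3 tumours and far above GC B cells, though the other probe set of Fkbp9 rose by only 1.11 and that of Gsto1 by 2.27.

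Cxcl9, a chemokine induced by interferon-γ, had 6.39, 8.72 and 10.82 in the tumours, against 2.55, 2.97, 2.44, 2.47 and 2.47 in GC B cells (6.06 ± 0.55, limma adjusted p = 1.08e-09). Iigp1, a GTPase under the same control, had 7.46, 10.71 and 10.43 in the tumours, against 3.41, 3.68, 3.51, 3.83 and 3.43 in GC B cells (5.96 ± 0.57), and the chemokine Ccl8 had 9.49, 7.27 and 9.51 in the tumours, against 3.78, 3.54, 3.51, 3.71 and 3.20 in GC B cells (5.20 ± 0.65). Cxcl9 and Iigp1 were lowest in replicate 1. Clu, the secreted chaperone clusterin, had 6.99, 12.77 and 12.58 in the tumours, against 4.50, 5.32, 5.35, 6.13 and 4.50 in GC B cells (5.62 ± 0.81), high in replicates 2 and 3. Mt1, a metallothionein, had 12.23, 12.09 and 8.24 in the tumours, against 6.09, 5.32, 4.77, 5.08 and 5.47 in GC B cells (5.51 ± 0.91), high in replicates 1 and 2. The rest, Fabp1 (6.56 ± 1.0), Cp (5.63 ± 0.67), Serpina1b (5.42 ± 1.14) and Car3 (5.32 ± 0.90), were highest in replicate 2, and the first 3 of these are genes of liver. Serpina1b and Serpina1c are near-identical copies that a probe set may not separate.

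Transcripts of other cell types moved with the groups. Of 21 liver genes 19 rose and 0 fell (median 3.53), and 8 rose without replicate 2 and 4 with replicate 3 alone. The list's mean level was 3.96, 11.54 and 4.28 in replicates 1, 2 and 3 and 3.04 to 3.28 in GC arrays. Of all genes up to 3 in GC B cells 59.7% were higher (median 1.01), and of those between 3 and 4 48.8% (median 0.89). Fabp1, the fatty acid carrier of liver, had 5.27, 13.54 and 8.54 in the tumours, against 2.47, 2.39, 2.52, 2.56 and 2.86 in GC B cells, so that replicate 3 also exceeded the GC arrays clearly. Cyp3a11, a liver oxidase, had 3.74, 12.05 and 4.17 in the tumours, against 2.44, 2.14, 2.20, 2.53 and 2.22 in GC B cells, and Apoa1, a lipoprotein, had 5.92, 12.28 and 6.07 in the tumours, against 3.64, 3.47, 3.67, 3.73 and 3.60 in GC B cells. Replicate 2 carried both at a high level, and replicates 1 and 3 were a little above the GC arrays.

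Of 18 genes of stroma and vessels 13 rose and 1 fell (median 2.02, 1.98 after renewed normalization), and 9 rose with replicate 3 alone. Col4a1, a basement membrane collagen, had 9.01, 7.80 and 6.98 in the tumours, against 3.59, 3.23, 3.64, 3.70 and 3.20 in GC B cells (4.46 ± 0.45, limma adjusted p = 8.48e-09). Col3a1, a fibrillar collagen, had 9.12, 8.54 and 6.44 in the tumours, against 3.15, 3.12, 3.52, 3.79 and 3.31 in GC B cells (4.66 ± 0.52), and Sparc, a matrix protein, had 9.68, 8.13 and 8.14 in the tumours, against 4.15, 3.61, 4.95, 4.66 and 4.80 in GC B cells (4.22 ± 0.50). All 3 were higher in each tumour. Dcn, the matrix proteoglycan decorin, rose by 2.83, and the one that fell was Pecam1, an endothelial and leukocyte adhesion protein (-1.27 ± 0.44, not called without replicate 2 or 3). The list's mean level was 6.17, 5.90 and 5.84 in the tumours, against 3.66 to 3.91 in GC arrays. Of all genes between 3 and 4 in GC B cells 48.8% were higher (median 0.89). The part of these cells in the other differences was not tested.

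Of 17 macrophage genes 4 were higher and 3 lower (median 0.68), shares near the 27.2% higher and 20.9% lower of all genes. Csf1r, the receptor for macrophage growth factor, had 10.39, 11.60 and 12.92 in the tumours, against 8.11, 8.36, 6.90, 7.13 and 8.18 in GC B cells (3.90 ± 0.62, limma adjusted p = 1.29e-05), and C1qb, a complement subunit, had 11.94, 11.86 and 13.0 in the tumours, against 9.41, 9.06, 7.78, 8.56 and 8.72 in GC B cells (3.56 ± 0.66). Both were high in each tumour. Other probe sets of these genes did not pass (-0.31 for 1 of Csf1r, 1.04 for 1 of C1qb), and C1qa, which is made together with C1qb, fell (-1.31 ± 0.44, and -1.27 without replicate 3, limma adjusted p = 0.05). The scavenger receptor Msr1 rose (2.92 ± 0.64), and the protease Lgmn fell (-2.60 ± 0.57). Cd68 (-1.42 ± 0.64) and Adgre1, a surface receptor of macrophages (1.05 ± 0.70), did not pass. The list's mean level was 6.32, 7.52 and 6.90 in the tumours, against 5.72 to 6.95 in GC arrays.

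Other leukocyte markers were higher in the sorted GC arrays than in the tumours. Of 12 NK cell genes 10 fell and 0 rose (median -2.85). Nkg7, of cytotoxic granules, had 4.01, 4.26 and 5.33 in the tumours, against 8.65, 8.99, 8.55, 8.02 and 8.81 in GC B cells (-4.07 ± 0.54, limma adjusted p = 8.92e-07), and Gzma, a granule protease, had 5.44, 5.62 and 5.68 in the tumours, against 11.43, 11.36, 9.45, 8.58 and 9.22 in GC B cells (-4.43 ± 0.88). The GC arrays held Gzma at a level of abundant transcripts in replicates 1 and 2. Of 15 T cell genes 8 fell and 0 rose (median -1.36), with 2 lower and 2 higher with replicate 3 alone. Cd2, an adhesion receptor, had 5.44, 4.29 and 6.83 in the tumours, against 9.53, 9.65, 9.81, 9.54 and 9.99 in GC B cells (-4.19 ± 0.60), and Cd3e, of the T-cell receptor complex, fell by 2.10. Bcl11b did not pass (0.22 ± 0.34), nor did Cd4 (0.27 ± 0.34), whose other probe set rose (1.19). The mean levels were 4.16, 4.68 and 5.07 (NK cell) and 4.54, 4.52 and 5.54 (T cell) in the tumours, against 6.40 to 7.66 and 5.67 to 6.57 in GC arrays. Between 5 and 6 in GC B cells 16.0% of all genes were lower, between 6 and 7 31.2% and between 7 and 8 40.7%.

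Among 13 granulocyte genes 5 fell and 0 rose (median -1.27). S100a9, a calcium-binding protein of neutrophils, had 6.26, 8.88 and 7.92 in the tumours, against 12.92, 12.95, 12.63, 10.70 and 12.55 in GC B cells (-4.66 ± 1.05, limma adjusted p = 0.000721), and Camp, an antimicrobial peptide, had 4.63, 5.57 and 4.25 in the tumours, against 10.75, 11.02, 9.76, 7.02 and 9.59 in GC B cells (-4.81 ± 0.94). The fourth GC array was the lowest of its group for both and still above each tumour. Of 10 erythroid genes 1 fell and 0 rose, Car2, a carbonic anhydrase (-3.47 ± 0.68). Both lists stood beside 20.9% lower and 27.2% higher over all genes. The granulocyte list's mean level was 4.11, 5.98 and 4.97 in the tumours, against 5.74 to 7.77 in GC arrays. Between 5 and 6 in GC B cells 16.0% of all genes were lower, between 6 and 7 31.2% and between 7 and 8 40.7%. The part of these cell types in the GC values was not tested.

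Of 18 interferon-stimulated genes 5 rose and 2 fell (median 0.69, 1.02 after renewed normalization), a share of increases near the 27.2% of all genes. Without replicate 2 or without replicate 3 there were 3 increases. Oasl2, of the antiviral OAS family, had 4.79, 6.97 and 5.57 in the tumours, against 3.61, 4.15, 2.69, 2.52 and 2.93 in GC B cells (2.60 ± 0.48, limma adjusted p = 9.77e-05), and Oas1a, of the same family, had 6.76, 7.76 and 8.15 in the tumours, against 6.39, 6.55, 5.20, 5.05 and 5.62 in GC B cells (1.80 ± 0.56). Both were higher in every tumour, with replicate 1 the lowest, and Oas1a missed the threshold without replicate 3 (1.50 without replicate 3, limma adjusted p = 0.0631). Stat2, a factor of the interferon response, fell by 2.12. Ifit1 (1.11 ± 0.51), Irf7 (0.20 ± 0.53) and Mx1 (0.43 ± 0.59), also of this response, did not pass.

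Plasma cell genes showed no common direction, with 3 of 15 higher and 3 lower, beside 27.2% higher and 20.9% lower over all genes. Their median changed sign with the scaling (-0.03, 0.60 after renewed normalization). Without replicate 1 the counts were 1 and 2, and with replicate 3 alone 0 and 1. Xbp1, the driver of the secretory programme, had 10.68, 8.26 and 9.33 in the tumours, against 7.41, 7.16, 7.13, 7.36 and 6.53 in GC B cells (2.31 ± 0.67, limma adjusted p = 0.00593). Tnfrsf17, the survival receptor BCMA, had 5.08, 5.46 and 4.79 in the tumours, against 3.52, 3.86, 3.25, 3.14 and 3.46 in GC B cells (1.67 ± 0.37). Both were above the GC range in each tumour by these probe sets. For Xbp1 this is 1 of 4 probe sets: another fell (-2.61 ± 1.04, with 8.85, 3.13 and 4.02 in the tumours, against 7.53 to 8.14 in GC B cells), the remaining 2 did not pass (-0.49 and -0.47), and the increase was not called without replicate 1 (1.68 without replicate 1, limma adjusted p = 0.0667). Jchain, which joins secreted IgM, had 7.13, 9.77 and 11.20 in the tumours, against 12.07, 11.73, 11.53, 11.58 and 11.10 in GC B cells (-2.24 ± 0.80), low in replicate 1 and not called without it (-1.12 without replicate 1, limma adjusted p = 0.272). Sdc1, which encodes the plasma cell marker CD138, did not pass (-0.29 ± 0.98), although 2 other probe sets rose (4.0 and 1.92).

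Of 14 early B-cell genes 6 fell and 1 rose (median -1.14, with 2 lower with replicate 3 alone). Their mean level was 5.15 to 5.77 in GC arrays, and between 5 and 6 16.0% of all genes were lower and 14.1% higher. Vpreb3 had 4.05, 4.06 and 6.24 in the tumours, against 9.04, 8.47, 9.19, 8.85 and 8.31 in GC B cells (-3.99 ± 0.66, limma adjusted p = 2.24e-05), and the surrogate light chain gene Igll1 fell by 3.0. Rag2, of the recombinase, rose from a dim level (1.96 ± 0.45), with 4.97 on average in tumours. Of 20 genes of oxidative phosphorylation 2 rose and 2 fell, and of 11 of glycolysis 1 rose and 2 fell (1 and 6, and 0 and 3, with replicate 3 alone). Over all genes 27.2% were higher and 20.9% lower. The medians of both lists changed sign with the scaling (-0.24 and 0.29, -0.17 and 0.24). Uqcrc2, of respiratory complex III, rose (1.48 ± 0.31), and Ndufa4, a respiratory chain subunit, fell (-2.49 ± 0.52).

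The tumours differed from each other more than the GC arrays did. Over 12393 genes, which are not independent, Pearson's r was 0.770 between replicates 1 and 2, 0.829 between 1 and 3 and 0.745 between 2 and 3, against 0.959 to 0.991 between pairs of GC arrays. Replicate 1 was more than 2 log2 units above both others for 84 genes and below them for 161. For replicate 2 the numbers were 494 and 136, and for replicate 3 they were 149 and 229.

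Set against the mean of each of the 6 normal stages, replicate 1 had its highest r with plasma cells (0.811, Spearman's rho 0.810) and 0.769 (rho 0.786) with GC B cells. Replicate 2 had 0.695 with plasma cells and 0.690 with GC B cells, and there rho put GC B cells on top (0.693 against 0.691 for plasma cells). Replicate 3 was most like GC B cells (0.729, rho 0.736) and had 0.694 with plasma cells. Plasma cell replicates 1 and 2 were close to the tumours in 18S signal (4.02 and 4.21) and in the 3' minus 5' difference (4.59 and 4.46). Plasma cell replicate 3 was not (7.38 and 0.45). The interquartile ranges of the plasma cell arrays, 3.40 to 4.03, were all above those of the tumours. The part of these measures in r was not tested. All 3 tumours were closer to the mean of the Bcl6 tumours (r = 0.885, 0.796 and 0.882) than to any normal stage. So they were to the mean of the 6 other tumours of the series, titled Lig4/P53 KO (0.833, 0.730 and 0.732).

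The 6 genes furthest above both other tumours in replicate 1 included 2 of the secretory pathway. Txndc5, a disulfide isomerase, had 9.93, 5.69 and 5.77 in the 3 tumours and 8.54, 8.43, 8.29, 8.45 and 7.89 in GC B cells. Sel1l, of the pathway that degrades misfolded proteins, had 9.41, 4.97 and 5.31 in the tumours and 6.44, 6.21, 7.37, 7.27 and 6.81 in GC B cells. By these probe sets both were above all GC arrays in replicate 1 and below them in the other tumours. The other Txndc5 probe set also had replicate 3 above the GC arrays (7.21 against 6.33 to 6.98). The other Sel1l probe sets had only 4.15 to 5.61 in replicate 1, and where it had 4.15, replicate 3 was higher (5.52). Gpm6a, a membrane glycoprotein, reached 9.98 in replicate 1, Pgam2, the muscle form of a glycolytic enzyme, 9.50, Tcstv1 7.82 and the κ light chain segment Igkv6-15 10.43, each at least 3.89 above the nearer tumour. The other Gpm6a probe set had 4.52 in replicate 1, within the GC range (4.22 to 5.09). Beside Ms4a1, Ighm, Clu and Serpina1b, the genes furthest below were Clca3a1 (3.11), a secreted protein of epithelium and vessels, and Tshz1 (3.62), a zinc finger factor.

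In replicate 2 the 6 genes furthest above were all liver transcripts. Serpina1c, a protease inhibitor, had 2.24, 12.47 and 2.71 in the tumours, against 2.11, 1.76, 1.99, 1.98 and 1.94 in GC B cells. Fga, the fibrinogen α chain, had 2.75, 12.52 and 3.08 in the tumours, against 2.42, 2.30, 2.43, 2.19 and 2.40 in GC B cells. Cps1, the first enzyme of the urea cycle, had 2.97, 12.30 and 3.43 in the tumours, against 2.13, 2.35, 2.53, 2.48 and 3.05 in GC B cells. In these genes replicates 1 and 3 were in or close to the GC range, more than 8 log2 units below replicate 2. Alb, Cyp2e1 (12.32 in replicate 2) and Mug1 (11.23) completed the 6. Furthest below both other tumours were 2610001J05Rik (2.51), Tspan8 (3.31), a tetraspanin, Ckap4 (3.22), a membrane protein of the endoplasmic reticulum, Armcx2 (2.62), Slc4a1 (4.86), the anion exchanger of red cells, and Stx1a (4.13), a syntaxin. The further probe sets of 2610001J05Rik, Ckap4 and Stx1a also had replicate 2 lowest. In those of Tspan8 it was the highest tumour (3.66 to 5.43), as in another of Slc4a1 (4.42). In another of Armcx2 it lay between the others (4.04).

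In replicate 3 the 6 genes furthest above included 3 that were also high in GC B cells. Satb1, a chromatin organiser of lymphocytes, had 3.51, 3.24 and 8.78 in the tumours, against 9.42, 9.70, 9.80, 9.63 and 10.35 in GC B cells. B3gnt5, a glycosyltransferase, had 4.05, 2.77 and 8.32 in the tumours, against 9.01, 8.48, 8.67, 8.52 and 9.08 in GC B cells. In both of these probe sets, replicate 3 approached the GC arrays, while replicates 1 and 2 were far below. Another Satb1 probe set had replicate 3 low as well (4.81, against 6.75 to 8.02 in GC B cells). A further Satb1 probe set had it within the GC range (5.90, against 5.79 to 6.76). Tlr7, a receptor for RNA, reached 9.57, Naip6, an inflammasome receptor, 8.39, and BC023105 8.22. Ccl5, a chemokine, had 4.64, 4.18 and 8.89 in the tumours, against 7.96, 8.37, 8.41, 8.88 and 8.62 in GC B cells, with replicate 3 at the upper end of the GC range. It lacked the high metallothionein of the others: Mt2 had 11.86, 11.01 and 5.99 in the tumours, against 4.83, 4.53, 4.97, 4.85 and 4.51 in GC B cells. Nolc1, a nucleolar protein, had 9.41, 7.78 and 3.93 in the tumours, against 7.61, 7.72, 7.78, 7.37 and 8.22 in GC B cells. Replicate 3 was far below the GC arrays in this probe set, but the other 2 of Nolc1 were called in opposite directions (-3.04 ± 0.59 and 2.12 ± 0.48), and in the second of them replicate 3 was above the GC arrays (8.42 against 6.81 to 7.28). Car3 (3.28), Mpp6 (5.09), a scaffold protein, and Sema4g (3.81), a semaphorin, were also furthest below both others, with Mt1. The other Mpp6 probe set had 6.02 in replicate 3, beside 6.03 in replicate 1 and above the GC arrays (3.20 to 5.27).

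**Figure D4:**
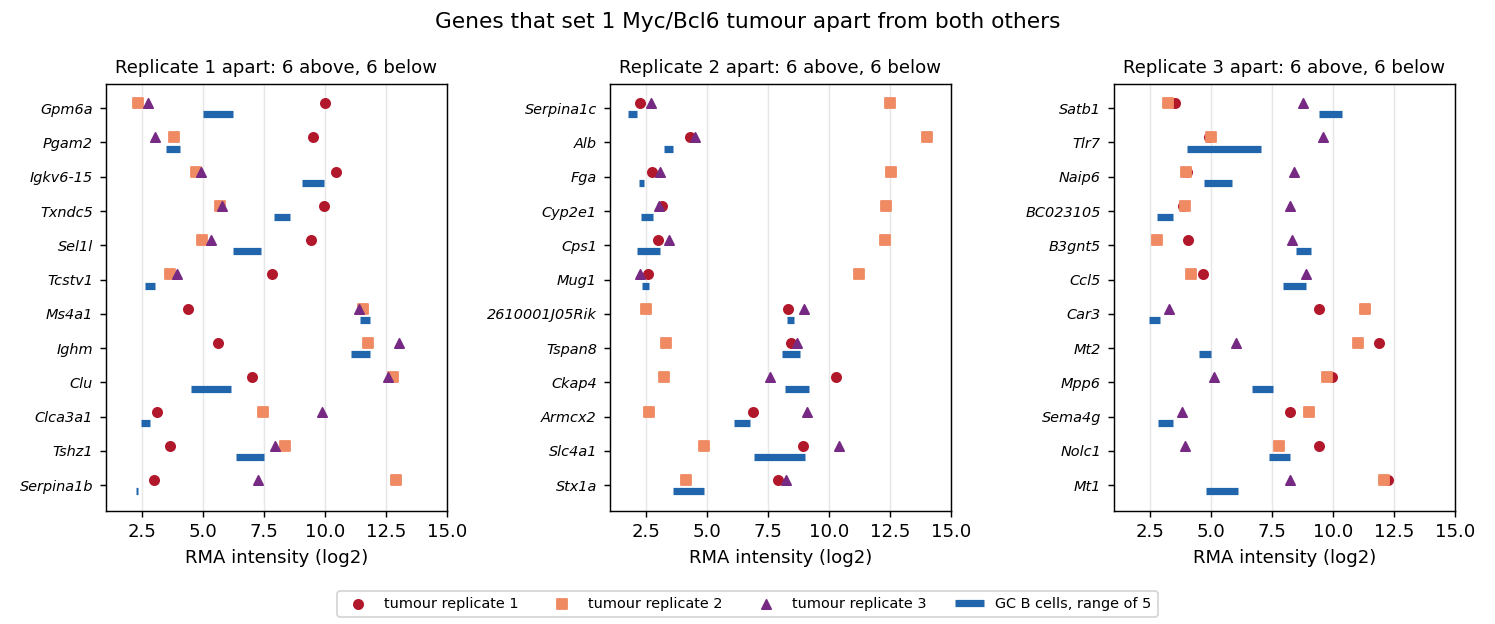
RMA intensity (log2, x axis) of the 6 genes furthest above and the 6 furthest below both other tumours, for each Myc/Bcl6 tumour in its own panel, with symbols for tumours and a blue bar for the range of the 5 GC arrays. Replicate 2 exceeds 11 for its 6 upper genes, all liver transcripts, and replicate 1 has 4.39 for Ms4a1 beside 11.56 and 11.37.

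Against the 4 Bcl6 tumours, which carry the Bcl6 transgene without Myc and for which no sort is given either, fewer genes differed. Of 12393 genes 484 (3.91%) passed, 240 (1.94%) higher and 244 (1.97%) lower in the Myc/Bcl6 tumours. The 6 largest increases among genes without overlap were Apoa1, Fgb, Itih4, Ambp, Tfr2 and Ugt2b5, all of liver. Fgb, the fibrinogen β chain, had 3.85, 11.77 and 3.87 in Myc/Bcl6 tumours, against 2.82, 2.75, 2.60 and 3.28 in Bcl6 tumours (log2 difference 3.63 ± 0.94, limma adjusted p = 0.0261). Replicate 2 was far above, and replicates 1 and 3 slightly above, the Bcl6 tumours. The other 5 had differences of 3.42 to 3.80, and without replicate 2 none of the 6 passed (0.85 to 1.71, limma adjusted p = 0.0633 to 0.329).

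Among the largest decreases, Chst1, a sulfotransferase, had 5.70, 3.79 and 7.08 in Myc/Bcl6 tumours, against 10.44, 8.73, 8.09 and 8.53 in Bcl6 tumours (-3.42 ± 0.61, limma adjusted p = 0.00235). Serpinb6b, a protease inhibitor, had 4.31, 6.28 and 9.21, against 9.84, 10.10, 11.62 and 10.59 in Bcl6 tumours (-3.94 ± 0.80). Neither overlapped. Gimap3 (-3.42 ± 0.72), a GTPase of lymphocytes, Glipr1 (-3.38 ± 0.62), Sh3bgrl3 (-3.36 ± 0.60) and St3gal6 (-3.32 ± 0.81), a sialyltransferase, followed. With replicate 3 as the only Myc/Bcl6 tumour these 6 differences were -1.16 to -1.87 and none passed (limma adjusted p = 0.231 to 0.576).

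Cd74 and Cd37 were also lower than in Bcl6 tumours. Cd74 had 8.08, 9.71 and 11.29 in Myc/Bcl6 tumours, against 12.67, 12.03, 12.71 and 12.84 in Bcl6 tumours (-2.87 ± 0.46, limma adjusted p = 0.00191), and Cd37 had 6.19, 5.78, 7.44 and 7.19 in Bcl6 tumours (-2.11 ± 0.40, limma adjusted p = 0.0036). Neither gene overlapped. Of 13 class II genes 6 were lower and 0 higher (median -1.44, beside 0.03 for all genes), as were 6 of 12 class I genes and 5 of 14 genes of receptor signalling. Of the 16 genes of the receptor and its surface partners 3 were lower, and Cd79a (-0.39 ± 0.43), Cd79b (-0.83 ± 0.40), Cr2 (-0.39 ± 0.58) and Ly6d (-1.26 ± 0.55) did not pass. Myc (-1.52 ± 0.72, limma adjusted p = 0.245) and Bcl6 (-0.48 ± 0.80, limma adjusted p = 0.796) did not pass. Fitted on these 7 arrays alone, limma called 0 genes, with 1218 at an unadjusted p under 0.05, and the count ran from 119 to 1386 as single arrays were left out (234 and 780 without Myc/Bcl6 replicates 2 and 3, and 1386, 119 and 136 without Bcl6 tumour replicates 2, 3 and 4, the first of which has the narrowest spread of its group).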

How the data were processed

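The series holds 35 arrays, of which 3 Myc/Bcl6 tumours, 5 GC B-cell samples and 4 Bcl6 tumours were compared here. Per the submitters' processing notes, the authors deposited log2 intensities made with RMA. Which arrays were normalized together is not given in the sources used here. The deposited table has 22690 probe sets with a median log2 value of 4.92, and the number of arrays limits the precision. Groups came from the sample titles. Nothing in the labels says that replicates came from separate mice. The p-values rest on the spread within groups, pooled over all 35 arrays, and this spread may be technical. It was unequal: for Ptprc the standard deviation was 2.25 in the tumours and 0.14 in GC B cells.

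Probe sets with 1 gene symbol (20380, while 691 had several, 1555 none and 64 were controls) were named from the platform annotation, and the one of highest mean stood for each of 12393 genes. One limma fit (3.58.1, in R 4.3.3, with lmFit and eBayes) held a coefficient per group over all 35 arrays, with Benjamini-Hochberg adjustment over all genes, and adjusted p under 0.05 was called. The fit was tested on simulated data with the same spread in all groups and no technical difference between them. Since these arrays differ in both, that test cannot check the calls given here. Levels of 29 gene lists (432 of 478 genes measured) were means over members. The members and lists were chosen with earlier results of these data known.

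Named genes were the 12 largest called increases and 12 largest decreases without overlap (leaving out immunoglobulin and T-cell receptor segments and unnamed genes), the markers Myc, Bcl6, Cd37, Cd74, Ptprc, Ighm and Alb, up to 5 members of smallest p per list, the 6 genes highest above and lowest below both other tumours for each tumour, and the 6 largest changes each way against Bcl6 tumours. Other list members and Ms4a1, with the transcripts quoted beside them, were chosen after their values were seen. Alternatives covered the probe set, dim genes, scaling, variance prior, array weights, arrays in the fit, 3 technical covariates, a replicate block and leaving out arrays. Same-numbered tumour and GC arrays did not deviate together (r = 0.02, 0.04 and 0.06). Promoter windows of 300 bases came from RefSeq, GRCm38.p6.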

Additional observations from a re-analysis of the deposited data

Results flagged for a closer look

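Of 71 groups of values tested for a single array far from the rest, 6 stood out, and chance gives about 1 in 20. All 6 are in GC B cells. The check does not clear the Myc/Bcl6 tumours, since Alb, with 4.28, 13.99 and 4.48 there, was not among the 6. Myc had 10.23 in replicate 5, and the gap to the nearest array was 0.722 of the group's range. The mean level of the germinal centre gene list was 8.75 in replicate 5 (gap 0.888 of the range), that of the Polycomb repressive complex 2 list 8.90 in replicate 5 (0.806) and that of the Myc network list 6.79 in replicate 5 (0.713). Hba-a2 had 9.89 in replicate 4 (0.770), and Cxcl9 had 2.97 in replicate 2 (0.791). For Myc, Hba-a2 and Cxcl9 the tumours did not overlap with any GC array, these included.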

How the results depend on the processing

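Against GC B cells, 3365 genes were higher and 2595 lower. The genes called higher numbered 1264 when only genes above the median in a group were tested (7285 genes), 1970 after repeated quantile normalization and 1963 with replicate 3 as the only tumour, a lone array taken to vary like the other groups. With a technical measure as a covariate, 1519 and 1403 genes were higher and lower (3' minus 5' difference), 86 and 152 (18S rRNA), and 2171 and 1079 (interquartile range); which of measure and tumour carries the signal cannot be told apart. Leaving out single arrays gave 2439 to 3094 higher and 2129 to 2472 lower. Over 19 alternatives other than the filter on dim genes and the 18S covariate, 425 genes kept a higher and 633 a lower call, and 51 and 66 once the 18S covariate was included.

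Against Bcl6 tumours, 484 genes passed. The count was 0 with the compared arrays alone (1218 at an unadjusted p under 0.05 by limma, beside 2327 over all arrays), 3701 without the 3 arrays of narrowest spread, 208 with replicate 3 as the only Myc/Bcl6 tumour, and 119 to 1386 without single arrays. The cause was not tested.

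With the replicate number as a block, 2829 genes were higher and 2441 lower than in GC B cells, and 256 differed from Bcl6 tumours. Same-numbered tumour and GC arrays did not deviate together, but so few arrays cannot show whether those of a number were handled together. Of 870 single gene values under alternatives, 775 kept direction and side of the threshold, 90 lost the call, 2 gained it and 3 reversed. All 3 were Ighm, with 0.84 under the 18S covariate, 0.92 without Myc/Bcl6 replicate 1 and 1.56 with replicate 3 as the only tumour, while it passed without Myc/Bcl6 replicate 3 (-2.80) and as the mean of its probe sets (-2.21). Of 1218 list counts, 1000 stayed within 1.5 times. The genes named by size or as markers that kept their call under each alternative run were Ccl8, Cd37, Cp, Cxcl9, Fkbp9, Igfbp7 and Iigp1.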
